A study of Mus musculus with 9 samples.

Results

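The genes described here are the mouse solute carriers of family 25 (Slc25a) and the voltage-dependent anion channels Vdac1, Vdac2 and Vdac3, as they were read in the fetal heart with and without Esrrg. Esrrg encodes the orphan nuclear receptor ERRγ (estrogen-related receptor gamma), known to bind and activate many genes of mitochondrial energy metabolism. The members were all probe sets that name 1 gene and whose platform symbol starts with Slc25a, together with those of the 3 Vdac genes. This gave 100 of the 45101 probe sets on the array and 47 of the 18193 genes that such probe sets cover, of which 44 are Slc25a genes. For 24 of the 47 genes there was more than 1 probe set, with 8 for Slc25a5. The brightest probe set by mean over all arrays stood for each gene.

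Family 25 carriers are small proteins with a shared fold of repeated helices that sit mostly in the inner mitochondrial membrane and exchange one metabolite for another across it. They pass ADP, phosphate, carboxylic acids, amino acids, acylcarnitines, iron and cofactors, none of which crosses that membrane freely. The porins form the wide channels of the outer membrane through which the same metabolites reach the carriers. In the heart, export of ATP by the adenine nucleotide carriers and import of phosphate are needed at high rates, and the carrier of acylcarnitines serves fatty acid oxidation. Slc25a17, a cofactor carrier of peroxisomes, and Slc25a46, an outer membrane protein of mitochondrial dynamics, carry the family's name without being inner membrane carriers.

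Ventricles came from male mouse fetuses shortly before birth (E18.5) with no intact copy of Esrrg (KO, ERRg -/-), 1 intact copy (HET, ERRg +/-) or 2 intact copies (WT, ERRg +/+), with 3 Affymetrix arrays of each genotype. All arrays shared sex, age, tissue, storage and labelling from 6 µg of total RNA. The labels give no strain or allele construction. They leave unsettled whether an array was hybridised with RNA of 1 heart or of 3 pooled hearts, so the p-values below measure the spread between these arrays only. Comparing the genotypes asks which genes differ when ERRγ is missing, and whether losing 1 copy is enough.

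The values are MAS5 signals, a linear brightness per probe set that was scaled to the same trimmed mean of 200 on each array. Array medians lay between 36.6 and 45.9. Differences are given on the log2(signal + 16) scale, with limma's standard error after ±, and a gene was called where its adjusted p was under 0.05 over the 13028 genes that passed a filter on dim signals. Esrrg had signals of 58.3, 58.1 and 39.3 in KO, 162, 164 and 162 in HET, and 281, 213 and 206 in WT (KO minus WT -1.88 ± 0.19, limma, adjusted p = 0.00018). Over the 20 arrangements of 3 against 3 arrays, a two-sided exact permutation test gave p = 0.1, the smallest it can give. No label says whether this probe set covers the altered part of Esrrg. The other Esrrg probe sets, both dim, gave KO minus WT differences of -0.14 ± 0.43 and -0.13 ± 0.38. Their mean signals were 33.1 and 32.1 in KO against 42.2 and 38.4 in WT, and neither was called in a fit over all probe sets (limma, adjusted p = 0.950 and 0.944). All 10 cardiomyocyte markers passed the filter. Of the listed markers found among probe sets naming 1 gene, 1 of 3 adipose markers passed (Cidea, but not Ucp1 or Adipoq). So did 1 of 4 liver markers (Alb, but not Afp, Apoa1 or Ttr) and 1 of 3 neural markers (Sox10, but not Th or Tubb3). All 5 atrial markers passed as well, with summed signals of 18310 to 23370 in KO, 20010 to 22150 in HET and 18070 to 23370 in WT. So did all 8 endothelial, 8 fibroblast, 7 smooth muscle and pericyte, and 6 epicardial markers. The filter was passed by 13028 of the 18193 genes, so passing it does not by itself show a cell type. In WT the summed signals were 34260 to 39110 for the fibroblast and 15340 to 17510 for the smooth muscle and pericyte markers. They were 4622 to 5360 for the endothelial and 773 to 1194 for the epicardial markers.

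The arrays fall into a pair of batches by the ratio of the poly-A spike-ins thr and dap, a partition inferred from control probe sets alone, since the sources used here give neither scan dates nor runs. The log2 ratio was -1.35 to -1.21 in the 3 KO arrays and HET replicates 2 and 3 (second batch), and -1.03 to -0.82 in HET replicate 1 and the 3 WT arrays (first batch). Every KO array therefore lies in the second batch and every WT array in the first, and between them genotype and batch can be separated only through HET. Fitting the batch as a block gives KO minus WT as the sum of KO minus HET within the second batch and HET minus WT within the first, which rests on the single array of HET replicate 1. Differences with this block are given beside the KO minus WT differences of the tested members.

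Promoter windows from RefSeq (GRCm38.p6, 250 bases before to 50 after a gene's start) were found for 35 of the 47 genes, in 45 windows. That of Slc25a5, the called member with a window, is printed here 5′ to 3′ on the gene's strand beside those of Slc25a4, Slc25a3 and Vdac1, bright members of the same roles that were not called. Vdac2 and Vdac3 are named only. Capitals mark matches on either strand to AAGGTCA (the core of the ERR response element), to the NRF1-type motif (GCGC, any base, then TGCGC) or to CCGGAAG (ETS-type).
Slc25a5, chrX:36795347-36795646, plus strand: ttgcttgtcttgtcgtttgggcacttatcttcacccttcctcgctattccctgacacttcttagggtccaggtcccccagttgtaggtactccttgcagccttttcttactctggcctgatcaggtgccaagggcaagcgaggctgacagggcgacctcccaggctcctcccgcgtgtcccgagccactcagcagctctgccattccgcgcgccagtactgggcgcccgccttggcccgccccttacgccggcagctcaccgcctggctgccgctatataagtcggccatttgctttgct
Slc25a4, chr8:46211013-46211312, minus strand: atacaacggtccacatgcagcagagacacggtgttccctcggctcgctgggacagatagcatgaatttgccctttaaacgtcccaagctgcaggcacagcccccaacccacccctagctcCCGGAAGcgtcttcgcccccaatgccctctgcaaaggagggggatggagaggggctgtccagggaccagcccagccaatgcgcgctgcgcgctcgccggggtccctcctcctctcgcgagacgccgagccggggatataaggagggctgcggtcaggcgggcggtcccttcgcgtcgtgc
Slc25a3, chr10:91123918-91124217, minus strand: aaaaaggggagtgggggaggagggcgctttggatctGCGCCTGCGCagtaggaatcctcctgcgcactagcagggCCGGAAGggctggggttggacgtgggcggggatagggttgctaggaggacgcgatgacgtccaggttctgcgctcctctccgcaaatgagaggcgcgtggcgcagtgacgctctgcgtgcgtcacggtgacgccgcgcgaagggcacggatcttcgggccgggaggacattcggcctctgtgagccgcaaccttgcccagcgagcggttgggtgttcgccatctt
Vdac1, chr11:52360601-52360900, plus strand: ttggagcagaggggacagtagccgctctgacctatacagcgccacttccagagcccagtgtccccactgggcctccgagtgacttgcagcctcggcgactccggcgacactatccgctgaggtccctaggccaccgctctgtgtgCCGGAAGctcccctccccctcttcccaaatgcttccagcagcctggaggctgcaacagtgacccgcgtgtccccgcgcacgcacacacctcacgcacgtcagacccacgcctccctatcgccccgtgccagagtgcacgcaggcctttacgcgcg
Vdac1, chr11:52361347-52361646, plus strand: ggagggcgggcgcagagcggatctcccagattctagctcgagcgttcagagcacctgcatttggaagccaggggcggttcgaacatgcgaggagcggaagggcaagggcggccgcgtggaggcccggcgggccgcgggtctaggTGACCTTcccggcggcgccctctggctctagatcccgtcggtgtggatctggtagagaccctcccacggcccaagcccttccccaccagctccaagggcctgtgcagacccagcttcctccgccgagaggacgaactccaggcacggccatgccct

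AAGGTCA was present in 2 of the 45 windows (4.44%), those of Vdac1 and Slc25a34, against 4.72% of all 32851 windows in the table and 3.17% of the windows of tested genes. In Vdac1 it lies on the minus strand from 106 bases before the start, in the second window printed, where it reads TGACCTT. The longer form TNAAGGTCA, which contains AAGGTCA, was in 0 of the 45 windows, in 1.28% of all windows and in 0.752% of those of tested genes. The NRF1-type motif was in 2 windows (4.44%, Slc25a3 and Slc25a31), against 4.6% of all windows and 9.18% of those of tested genes. CCGGAAG was in 8 windows (17.8%), against 8.86% of all windows and 15.9% of the windows of tested genes. Among the sequences printed it occurs in Slc25a4, Slc25a3 and the first window of Vdac1. Slc25a5 held none of the searched motifs in its window. A match describes letters in these windows and not binding of a factor.

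Between KO and WT, the carriers and porins showed no common direction. Of the 41 members that passed the filter, 1 fell (Slc25a5) and 1 rose (Vdac3), a share to be read against 1.62% of all genes called in either direction (0.883% lower and 0.737% higher). Of the 41, 21 were lower and 20 higher in KO (51.6% of all genes tested were lower). The median log2 difference of the members was -0.00032, and that of all genes tested -0.0092. In 14 members the difference was smaller than 0.1 in size, and in 12 it was larger than 0.3. At an unadjusted p under 0.05 there were 8 of the 41 members (17.2% of all genes), with 4 lower (Slc25a3, Slc25a5, Slc25a30, Vdac1; 9.28% of all genes) and 4 higher (Slc25a36, Slc25a37, Slc25a40, Vdac3; 7.91% of all genes). The plot of differences by transport role shows them on both sides of 0 in each of the 8 roles.

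**Figure D1:**
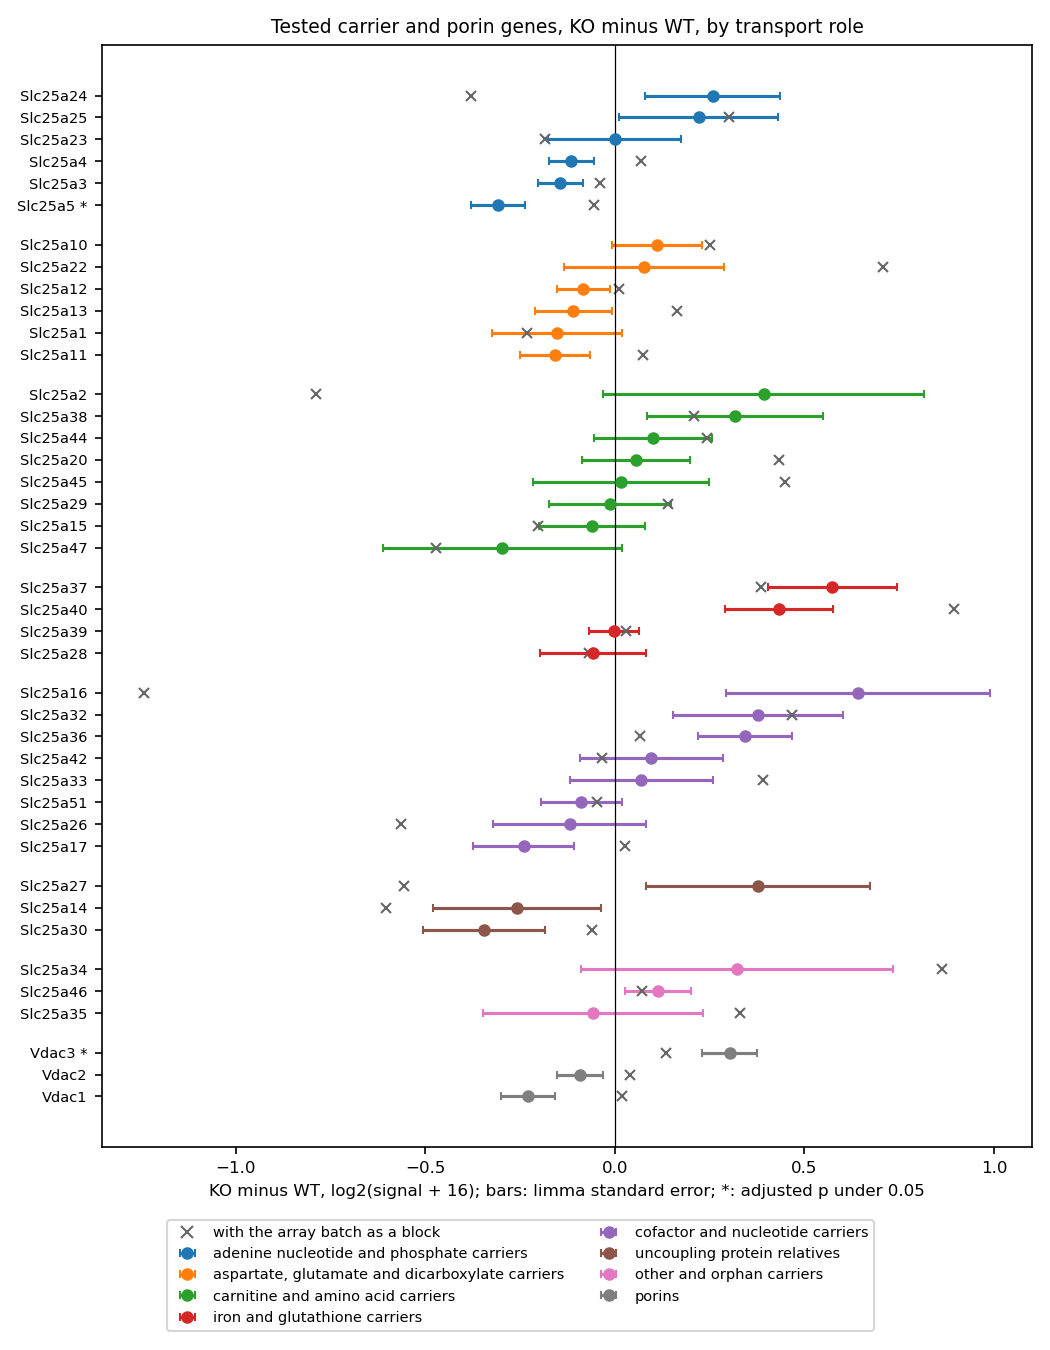
KO minus WT difference of each of the 41 tested members on the log2(signal + 16) scale, grouped by transport role; points are limma estimates from all 9 arrays with standard errors, and crosses are the estimates with the array batch as a block. Slc25a5 and Vdac3, marked by an asterisk, lie at -0.31 and 0.30, and their crosses lie nearer 0 at -0.05 and 0.13.

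The adenine nucleotide carriers and the phosphate carrier supply the ATP synthase with ADP and phosphate. Slc25a5, the adenine nucleotide carrier (ANT2) that most tissues share, had signals of 11387, 12044 and 11663 in KO, 14292, 12235 and 11737 in HET, and 13724, 14633 and 15104 in WT. Every KO array was below every WT array, and HET replicate 1 stood with the WT arrays while HET replicates 2 and 3 stood near the KO arrays. The KO mean was 80.7% of the WT mean, and Slc25a5 fell by 0.31 on the log2 scale in KO relative to WT (SE 0.07, 95% interval -0.46 to -0.16, limma, adjusted p = 0.0446). Fitted with the batch block, its KO minus WT difference was -0.05 ± 0.09, made of a KO minus HET difference of -0.04 ± 0.05 within the second batch and a HET minus WT difference of -0.02 ± 0.07 within the first. In bulk tissue, fewer cells of a type and less RNA per cell cannot be told apart. The summed signal of the 10 cardiomyocyte markers was 150900 to 162400 in KO, 152900 to 170500 in HET, and 166900 to 178000 in WT, with 8 of the 10 lower in KO, none called and a median difference of -0.14 (0.03 with the batch block). Of the 8 fibroblast markers, 7 were higher in KO and Lum rose (0.33 ± 0.08, limma, adjusted p = 0.0482; 0.34 with the batch block), and their summed signal was 38780 to 40260 in KO, 34210 to 39430 in HET, and 34260 to 39110 in WT. Of the 8 endothelial markers, 5 were lower and Kdr fell (-0.74 ± 0.14, limma, adjusted p = 0.0262; -0.25 with the batch block), and their median was -0.03 (0.17 with the block). With the block, 1 of all genes tested was called. The part of these markers in the carrier and porin values was not tested.

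Slc25a4, the adenine nucleotide carrier (ANT1) of heart and skeletal muscle, had signals of 21456, 23104 and 22474 in KO, 25599, 22848 and 22260 in HET, and 23782, 24743 and 24029 in WT. Its KO arrays were all below its WT arrays, but the highest value of all was that of HET replicate 1. The difference of -0.11 ± 0.06 did not pass (limma, adjusted p = 0.339) and was 0.07 ± 0.08 with the batch block. Slc25a3, the phosphate carrier, had signals of 15860, 16836 and 15279 in KO, 17543, 16433 and 16174 in HET, and 16781, 17612 and 18612 in WT. Its highest KO array lay just above its lowest WT array, and the difference of -0.14 ± 0.06 did not pass (unadjusted p = 0.0298, limma, adjusted p = 0.228; -0.04 ± 0.09 with the batch block). Slc25a31, the adenine nucleotide carrier of the testis, read 33.1, 10.3 and 8.99 in KO, 17.0, 7.86 and 34.8 in HET, and 14.1, 8.48 and 26.1 in WT, around and under the filter level of 21.7, and was not tested. The calcium-regulated carriers of ATP-magnesium and phosphate were not called, with differences of 0.26 for Slc25a24, 0.22 for Slc25a25 and -0.00032 for Slc25a23, the median member. With the batch block they gave -0.38, 0.30 and -0.18.

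**Figure D2:**
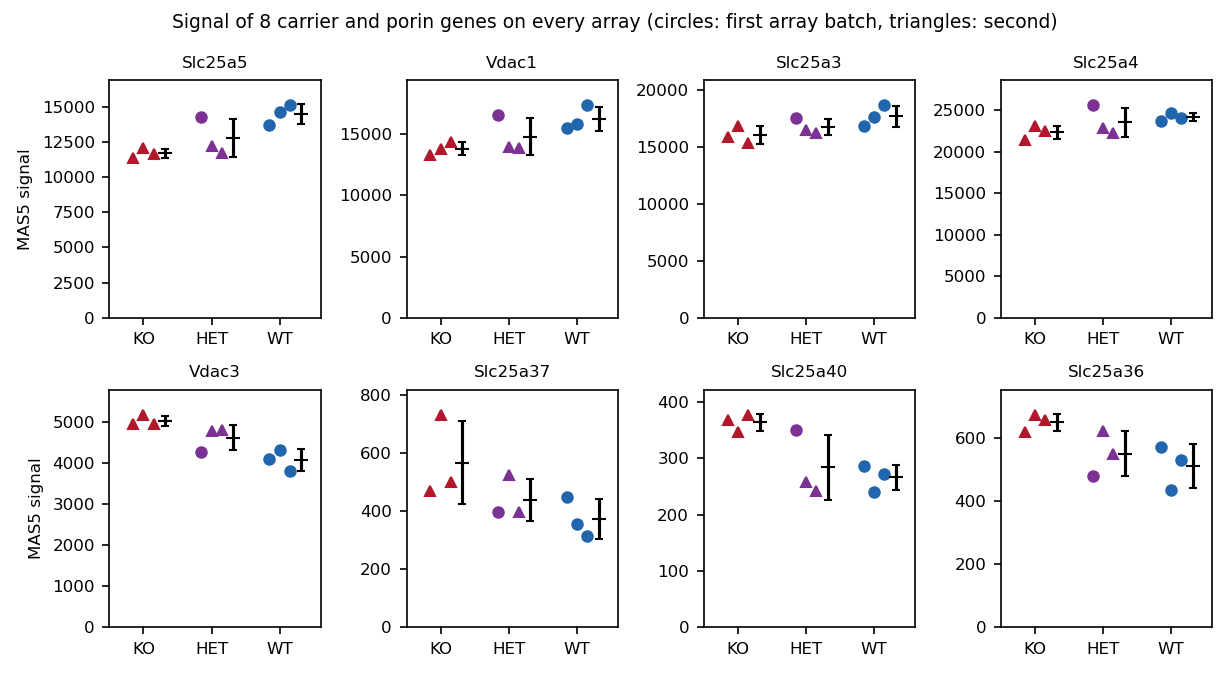
MAS5 signal (linear axis from 0) of 8 members on every array in KO, HET and WT; points are arrays, circles for the first array batch and triangles for the second, and the black marks give mean and SD of 3 arrays. In Slc25a5, Vdac1, Slc25a3 and Slc25a4 the single HET circle lies with or above the WT circles and the HET triangles with the KO triangles, and in Slc25a40 the HET circle lies with the KO arrays.

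Among the porins, Vdac3 rose and the other two were not called. Vdac3 had signals of 4960, 5177 and 4961 in KO, 4271, 4796 and 4809 in HET, and 4099, 4335 and 3811 in WT. Its KO arrays were above all HET and all WT arrays. Vdac3 rose by 0.30 ± 0.07 in KO relative to WT (95% interval 0.15 to 0.46, limma, adjusted p = 0.0482), which makes the KO mean 123% of the WT mean. With the batch block the difference was 0.13 ± 0.11, where KO minus HET within the second batch gave 0.07 ± 0.07 and HET minus WT in the first gave 0.07 ± 0.08.

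Vdac1, known as the main porin of most tissues, had signals of 13314, 13822 and 14348 in KO, 16531, 13968 and 13848 in HET, and 15526, 15804 and 17351 in WT. The KO arrays were below all WT arrays, with HET replicate 1 in the WT range and the other HET arrays in the KO range. Its difference of -0.23 ± 0.07 did not pass (limma, adjusted p = 0.111), and it was 0.02 ± 0.09 with the batch block. Vdac2, the porin that holds the cell death protein Bak in check, had signals of 10293, 11121 and 10291 in KO, 11088, 10211 and 10040 in HET, and 10983, 11168 and 11607 in WT. Its genotypes overlapped, and the difference was -0.09 ± 0.06 (limma, adjusted p = 0.484; 95% interval -0.22 to 0.04; 0.04 ± 0.09 with the batch block).

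The malate-aspartate shuttle moves reducing equivalents into mitochondria through an oxoglutarate carrier and an aspartate-glutamate carrier, and none of its carriers was called. Slc25a11, the oxoglutarate carrier, had signals of 3629, 3639 and 3840 in KO, 4024, 3444 and 3408 in HET, and 3697, 4007 and 4761 in WT. The KO arrays lay close together and overlapped the WT arrays, whose highest value was WT replicate 3 (difference -0.16 ± 0.09, limma, adjusted p = 0.403; 0.07 ± 0.14 with the batch block). Slc25a12 (aralar), the aspartate-glutamate carrier typical of heart and brain, had signals of 2492, 2391 and 2497 in KO, 2584, 2370 and 2473 in HET, and 2527, 2637 and 2655 in WT. Its KO arrays were narrowly below its WT arrays, with a difference of -0.08 ± 0.07 (limma, adjusted p = 0.597; 0.01 ± 0.11 with the batch block). Slc25a13 (citrin), the aspartate-glutamate carrier best known from liver, had signals of 873, 823 and 808 in KO, 959, 741 and 844 in HET, and 869, 927 and 907 in WT. It overlapped between genotypes (-0.11 ± 0.10, limma, adjusted p = 0.639; 0.16 ± 0.15 with the batch block). The citrate carrier Slc25a1 (-0.15), the dicarboxylate carrier Slc25a10 (0.11) and the glutamate carrier Slc25a22 (0.08) were not called, and gave -0.23, 0.25 and 0.71 with the batch block. Slc25a18, another glutamate carrier, was under the filter. Of the 4 enzymes of the same shuttle, 3 were lower and none was called, with the smallest p for the malate dehydrogenase gene Mdh1 (-0.27 ± 0.07, limma, adjusted p = 0.0591; -0.04 with the batch block).

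Slc25a20, the carnitine-acylcarnitine carrier through which long-chain fatty acids enter the matrix, had signals of 1263, 1556 and 1683 in KO, 1711, 1257 and 1371 in HET, and 1147, 1673 and 1534 in WT. The arrays of each genotype spread over nearly the same range, and the difference was 0.06 ± 0.14 (limma, adjusted p = 0.89; 95% interval -0.25 to 0.36; 0.43 ± 0.23 with the batch block). Of the 4 tested carnitine acyltransferases, which make and use the substrate of this carrier, 3 were lower and none was called, the smallest p being that of Cpt2 (-0.36 ± 0.10, limma, adjusted p = 0.0708; -0.32 with the batch block). The other members grouped here with the carnitine and amino acid carriers, not all of them known to carry amino acids, were not called either. They lay between -0.30 for Slc25a47 and 0.39 for Slc25a2, an ornithine carrier, both with dim signals (-0.47 and -0.79 with the batch block). Slc25a38, the glycine carrier of heme synthesis, gave 0.32 and Slc25a44, a carrier of branched-chain amino acids, gave 0.10 (0.21 and 0.24 with the block). The ornithine carrier Slc25a15 gave -0.06 and the basic amino acid carrier Slc25a29 gave -0.01, and Slc25a45 gave 0.02 (-0.20, 0.14 and 0.45 with the block). Slc25a48 was under the filter.

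Of the iron and glutathione carriers none was called, and Slc25a37 and Slc25a40 were higher on every KO array than on any WT array. Slc25a37 (mitoferrin 1), the iron carrier known for its role in red cell precursors, had signals of 471, 731 and 501 in KO, 398, 523 and 397 in HET, and 449, 356 and 315 in WT. KO replicate 2 lay above the other KO arrays, and WT replicate 1 just under the lowest of them. The difference was 0.57 ± 0.17 (limma, adjusted p = 0.0966; 0.39 ± 0.30 with the batch block). Of 12 erythroid markers listed, 8 were found among probe sets naming 1 gene. The sum below leaves out the others. Of the 8, 5 passed the filter and none was called, while Hba-a1, Epb42 and Rhag were under it. The summed signal of the 8 was 1433 to 1838 in KO, 1081 to 1645 in HET, and 1359 to 1764 in WT, in overlapping ranges. Of the 5 tested, 3 were higher and 2 lower in KO, from -0.55 to 1.03, with a median of 0.14 (0.56 with the batch block). At an unadjusted p under 0.05 (limma) 1 of the 5 was higher, beside 7.91% of all genes. The part of red cells in the Slc25a37 values was not tested. Slc25a28 (mitoferrin 2), the iron carrier of other tissues, had signals of 231, 275 and 287 in KO, 232, 237 and 231 in HET, and 293, 234 and 302 in WT. Its genotypes overlapped (-0.06 ± 0.14, limma, adjusted p = 0.881; -0.07 ± 0.25 with the batch block).

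Slc25a40, a glutathione carrier, had signals of 368, 347 and 376 in KO, 350, 258 and 243 in HET, and 285, 241 and 271 in WT. HET replicate 1, which was nearer WT in Slc25a5, Vdac1 and Vdac3, lay here among the KO arrays, while the other HET arrays lay in or near the WT range. The KO minus WT difference was 0.43 ± 0.14 (limma, adjusted p = 0.127), and it was larger with the batch block, at 0.89 ± 0.21 (limma, adjusted p = 0.361 in that fit). Within the second batch KO minus HET was 0.51 ± 0.13, and within the first HET minus WT was 0.38 ± 0.17. Its relative Slc25a39, the better studied glutathione carrier, gave -0.0021 ± 0.07 (0.03 ± 0.10 with the block), with mean signals of 6145 ± 47.1 in KO, 6402 in HET and 6164 ± 425 in WT (SD, n = 3 each).

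Among the cofactor and nucleotide carriers none was called. Slc25a36, a carrier of pyrimidine nucleotides, had signals of 620, 671 and 656 in KO, 479, 621 and 548 in HET, and 571, 433 and 529 in WT. Its KO arrays were above its WT arrays (0.34 ± 0.12, limma, adjusted p = 0.154; 0.07 ± 0.20 with the batch block). Slc25a16, linked to coenzyme A transport, had signals of 298, 267 and 237 in KO, 84.6, 387 and 325 in HET, and 178, 151 and 167 in WT. HET replicate 1 gave the lowest of all 9 values and the other HET arrays the highest 2, so the difference of 0.64 ± 0.35 (limma, adjusted p = 0.368) became -1.24 ± 0.26 with the batch block.

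Slc25a17, the peroxisomal carrier of coenzyme A and related cofactors, had signals of 240, 229 and 231 in KO, 300, 238 and 255 in HET, and 264, 308 and 267 in WT. Its KO arrays were below its WT arrays, with a difference of -0.24 ± 0.13 (limma, adjusted p = 0.380; 0.03 ± 0.22 with the batch block). Slc25a32, a carrier of folate and flavin cofactors, had signals of 165, 91.3 and 103 in KO, 124, 120 and 111 in HET, and 98.1, 99.0 and 65.0 in WT. Its HET arrays were all above its WT arrays, while KO replicate 2 lay within the WT range (KO minus WT 0.38 ± 0.22, limma, adjusted p = 0.420; 0.47 ± 0.41 with the batch block). The coenzyme A carrier Slc25a42 (0.10), the pyrimidine nucleotide carrier Slc25a33 (0.07), the NAD carrier Slc25a51 (-0.09) and the S-adenosylmethionine carrier Slc25a26 (-0.12) did not pass, and gave -0.03, 0.39, -0.05 and -0.56 with the batch block.

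Of the carriers related to uncoupling proteins, Slc25a30 had signals of 144, 135 and 161 in KO, 209, 180 and 158 in HET, and 195, 213 and 165 in WT. Its KO arrays were below its WT arrays, the closest pair being 161 and 165, and the difference was -0.35 ± 0.16 (unadjusted p = 0.0475, limma, adjusted p = 0.284; -0.06 ± 0.28 with the batch block). Slc25a27 gave 0.38 ± 0.30 (-0.56 ± 0.46 with the block) and Slc25a14 gave -0.26 ± 0.22 (-0.60 ± 0.39 with the block). The carriers with few or no known substrates, Slc25a34 (0.32) and Slc25a35 (-0.06), and Slc25a46 (0.11) were not called, and gave 0.86, 0.33 and 0.07 with the block. In all, the 23 tested members whose arrays are not given one by one ranged from -0.30 to 0.39, with 10 lower and 13 higher and a lowest adjusted p of 0.503 (limma). The 6 members that did not pass the filter were Slc25a18, Slc25a31, Slc25a41, Slc25a48, Slc25a53 and Slc25a54.

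The KO and WT arrays of 12 tested members did not overlap. Of these 6 were lower in KO (Slc25a4, Slc25a5, Slc25a12, Slc25a17, Slc25a30 and Vdac1; 13.9% of all genes did so) and 6 higher (Slc25a16, Slc25a27, Slc25a36, Slc25a37, Slc25a40 and Vdac3; 11.1% of all genes). The HET mean lay between the KO and WT means in all 12. The HET arrays differed among themselves: HET replicate 1, of the first batch, lay nearer the WT mean in 11 of the 12, Slc25a40 being the exception. HET replicate 2 lay nearer the KO mean in 10 and HET replicate 3 in 8, and all 3 placements held together in 7 of the 12. HET replicates 2 and 3 minus HET replicate 1 had the sign of KO minus WT in the same 11, from -0.28 for Slc25a30 to 1.88 for Slc25a16. With the batch as a block, 6 of the 12 kept their direction (Slc25a5, Slc25a30, Slc25a36, Slc25a37, Slc25a40 and Vdac3). Over all 41 tested members, 26 kept it and 16 had a smaller difference than without the block. The 12 were picked by the separation of their KO and WT arrays, which also lie in different batches. No share over all genes stands beside these placements, so they cannot be read as particular to the carriers and porins.

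**Figure D3:**
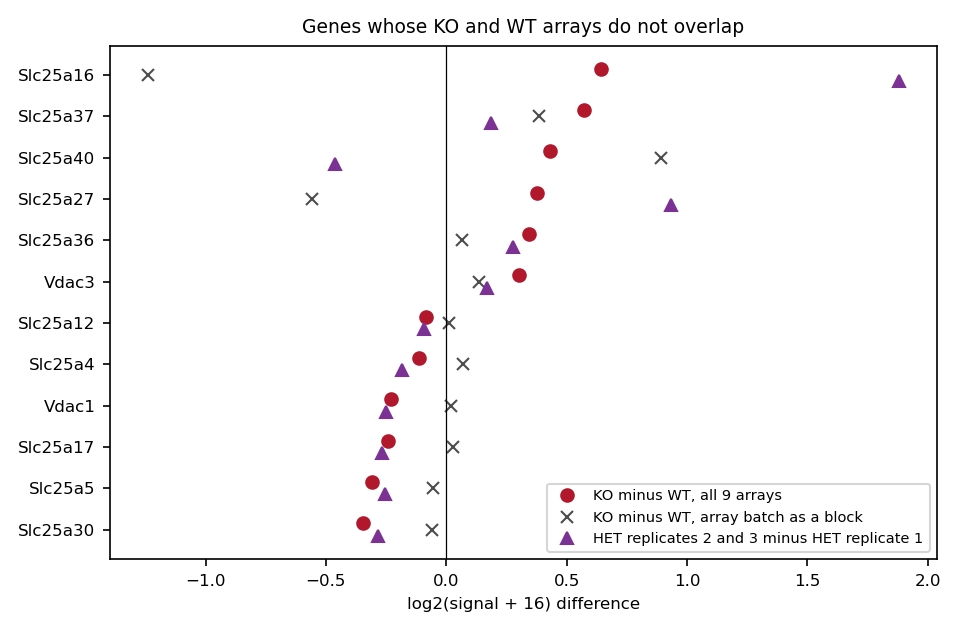
For the 12 members without overlap between KO and WT arrays, log2(signal + 16) differences of KO minus WT from all 9 arrays (circles), of KO minus WT with the array batch as a block (crosses), and of HET replicates 2 and 3 minus HET replicate 1 (triangles). The triangle lies on the same side of 0 as the circle in 11 genes, and in Slc25a40 it lies at -0.46 against a circle at 0.43.

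The comparisons with HET share the KO or WT arrays used above and are given beside them. Between HET and WT, limma called none of the 41 members and 0% of all genes, and at an unadjusted p under 0.05 Slc25a5 was lower (-0.19 ± 0.07, adjusted p = 0.362) and Vdac3 higher (0.18 ± 0.07, adjusted p = 0.377). Over all genes, 11.5% had such a p, 5.9% lower and 5.6% higher. Of the members, 22 were lower and 19 higher, with a median of -0.04 beside -0.0055 for all genes, of which 50.9% were lower. Slc25a32 was the only tested member whose HET and WT arrays did not overlap (0.39 ± 0.22, limma, adjusted p = 0.526), beside 6.29% of all genes higher and 7.41% lower without overlap. Between KO and HET, limma again called no member (0.0154% of all genes), and Slc25a40 alone had an unadjusted p under 0.05 (0.36 ± 0.14, limma, adjusted p = 0.989), beside 4.81% of all genes, 2.11% higher and 2.69% lower. Of the members 18 were lower and 23 higher (51.7% of all genes were lower), with a median of 0.02. Vdac3 was higher and Slc25a47 lower without overlap between KO and HET (0.12 ± 0.07 and -0.52), beside 4.76% and 5.73% of all genes.

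Probe sets of a gene gave different answers, described here for the adenine nucleotide carriers and Vdac1, which have several bright ones, and more briefly for other members. Most probe sets of Slc25a5 and Vdac1, the brightest of Vdac1 among them, carry the array maker's x suffix, which marks probes that can also match other transcripts. The 4 bright probe sets of Slc25a5, with KO means of 11698, 9367, 9266 and 11636, gave KO minus WT differences of -0.31, -0.13, -0.30 and -0.14. Its other 4 probe sets, with KO means of 1017, 342, 1742 and 701 against WT means of 668, 263, 1536 and 480, gave 0.59, 0.36, 0.18 and 0.53. In these 4, HET replicate 1 read 651, 232, 1627 and 390, below every KO array. HET replicate 2 read 1291, 423, 1923 and 775, and HET replicate 3 read 1133, 380, 1880 and 870. The batch block was not fitted to single probe sets, so their KO minus WT differences hold genotype and batch together. In a fit over all 45037 probe sets none of the 8 passed (limma, adjusted p = 0.113 to 0.515), where 0.298% of all probe sets did. When the mean of its probe sets stood for the gene, the difference of Slc25a5 was 0.10 ± 0.08 (limma, adjusted p = 0.650).

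For Slc25a4, another bright probe set gave -0.06, with means of 19921 ± 605 in KO and 20784 ± 557 in WT (SD, n = 3 each). A dimmer probe set was higher in KO on every array, with 2858, 2744 and 2703 in KO against 1965, 2343 and 2018 in WT (0.39 ± 0.10, limma, adjusted p = 0.0954 over all probe sets). This dimmer probe set read 2076, 2704 and 2624 in HET, with HET replicate 1 in the WT range and the other HET arrays near the KO arrays. The dim probe set of Slc25a4 gave -0.07. For Vdac1, the second brightest probe set had 12060, 12432 and 13536 in KO, 15425, 12169 and 12554 in HET, and 14701, 15566 and 15449 in WT. It gave -0.27, close to the brightest, again with HET replicate 1 in the WT range and the other HET arrays in the KO range. Both carry the x suffix. The only Vdac1 probe set without it gave -0.01, with overlapping arrays. It read 6480, 6430 and 6439 in KO, 6383, 6318 and 6202 in HET, and 6528, 6372 and 6577 in WT. The remaining probe sets, also with the x suffix, gave 0.16 and 0.14, the latter from a dim one. In Slc25a39 a dim probe set read 365, 374 and 356 in KO against 203, 276 and 187 in WT (0.70 ± 0.19, limma, adjusted p = 0.122), where the brightest showed no difference. Its HET arrays read 237, 463 and 288, with HET replicate 1 in the WT range and the other HET arrays above it. The probe sets of Slc25a29 ran from -0.32 to 0.61, those of Slc25a24 gave 0.26 and -0.50, and those of Slc25a3 gave -0.14 and 0.57, none called over all probe sets. Slc25a30 was the only gene with 3 or more further probe sets past the filter level in which they all had the sign of the brightest.

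**Figure D4:**
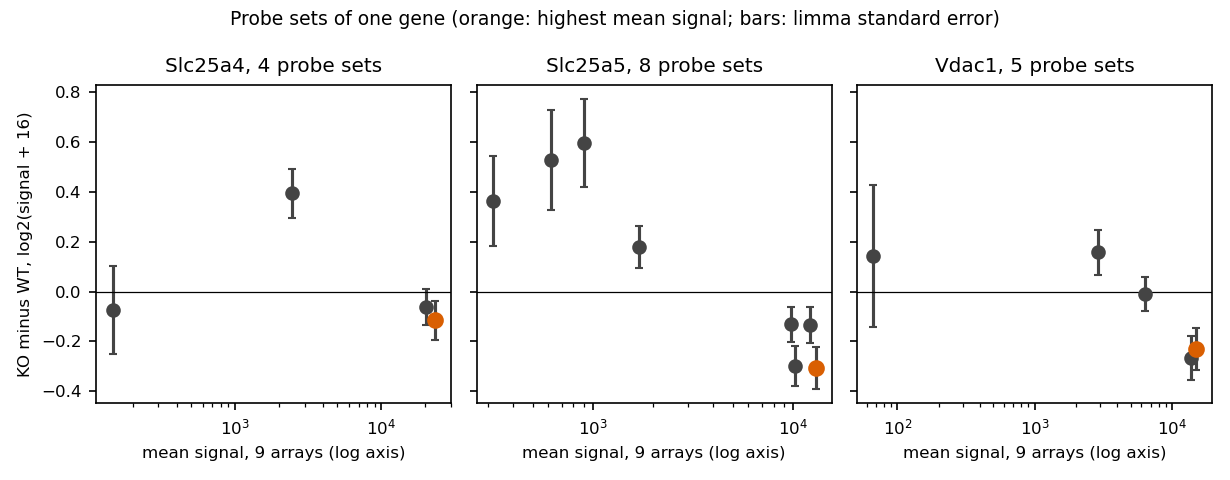
KO minus WT difference on the log2(signal + 16) scale against mean signal over 9 arrays (log axis) for every probe set of Slc25a4, Slc25a5 and Vdac1; bars are limma standard errors and orange marks the brightest probe set. The 4 bright probe sets of Slc25a5 lie below 0 and the 4 dimmer ones above it.

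Across the 18 members that had further probe sets past the filter level, 21 of these 40 probe sets (52.5%) had the sign of the gene's brightest, beside 54.0% over all genes tested. Counting the dim ones too, it was 23 of 50 (46.0%), beside 52.7%. Vdac2, Vdac3, Slc25a37 and Slc25a40 each had a single probe set and could not be compared in this way.

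Genes that work with the carriers and porins were mostly not called between KO and WT, where 1.62% of all genes were called. Of 15 genes of the import machinery that inserts carriers and porins into the membranes, 8 were lower and 7 higher, and Tomm20, a receptor of the outer membrane, rose, with 4157, 4267 and 3737 in KO, 2477, 3981 and 3963 in HET, and 2377, 2859 and 2715 in WT (0.61 ± 0.14, limma, adjusted p = 0.0432). HET replicate 1 again stood with the WT arrays, and with the batch block Tomm20 gave -0.07. At an unadjusted p under 0.05 (limma) 5 of the 15 were lower and 3 higher, beside 9.28% and 7.91% of all genes. Without overlap between KO and WT arrays 6 were lower and 2 higher, beside 13.9% and 11.1% of all genes. The median difference of the 15 was -0.08, and 0.005 with the batch block. Of 7 tested kinases and membrane partners that bind porins or nucleotide carriers, 4 were lower, and Ckmt2, the mitochondrial creatine kinase of muscle, fell, with 793, 657 and 762 in KO, 999, 921 and 1073 in HET, and 1430, 1852 and 1495 in WT. Unlike in Slc25a5, all 3 HET arrays lay between the KO and WT arrays, and the difference of -1.09 ± 0.11 (limma, adjusted p = 0.000184) was -1.08 with the batch block. None was called of 8 tested genes of the pyruvate carrier, sideroflexins and MTCH proteins (4 lower, smallest p for the pyruvate carrier subunit Mpc1, 0.21 ± 0.07, limma, adjusted p = 0.140; 0.09 with the batch block). The same held for 8 genes of calcium and cation transport (6 lower, smallest p for the uniporter regulator Smdt1, -0.22 ± 0.07, limma, adjusted p = 0.129; -0.01 with the batch block). Nor was any called of 3 mitochondrial ABC transporters (smallest p for Abcb10, -0.25, and -0.15 with the block) or Ucp3 (0.22, and 0.13 with the block), the single uncoupling protein tested.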

How the data were processed

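The deposited table holds a linear intensity per probe set for 9 arrays, produced with MAS5 per the submitters' processing notes, whose version the sources used here do not give. MAS5 subtracts mismatch probes, which makes dim signals noisy. Gene names came from the platform annotation and were updated by gene ID through RefSeq (GRCm38.p6). Of 45037 probe sets that are no controls, 34945 name 1 gene. A probe set that names Slc25a37 together with another gene was left out.

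The pseudocount of 16 in log2(signal + 16) understates changes of dim genes. Genes whose brightest probe set averaged below the 40th percentile (5.24 as log2, 21.7 as signal) were dropped, leaving 13028. The fit used limma 3.58.1 (R 4.3.3; lmFit over all 9 arrays with 1 mean per genotype, eBayes with trend), and p-values were two-sided and adjusted by Benjamini-Hochberg over all genes tested in a comparison. No pair of arrays held identical values. Having 3 arrays per genotype limits the precision. The fit was tested on simulated data. Figures were drawn with matplotlib 3.10.9.

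The members, roles, lists and alternatives were chosen with earlier results of these data known. Every member is named. Arrays are given one by one for members called in any comparison, for up to 12 others with the smallest p between KO and WT, and for 13 chosen by name for their role. Genes of other lists are named where called or of smallest p. Probe sets described singly, and the values of Slc25a39, were chosen after their values were seen.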

Additional observations from a re-analysis of the deposited data

How the results depend on the processing

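The median KO minus WT difference of the members stayed within -0.0033 and 0.05 under all 22 alternatives run, but the calls did not hold. The 2 calls between KO and WT became 1 with quantile normalization (Vdac3) and 1 with a pseudocount of 1 (Slc25a5). They became 0 with arrays shifted to one median on the log2 scale, with signals multiplied to one median (chosen after seeing the data), with no filter, with probe sets averaged per gene, with no intensity trend and with the array batch as a block, and 4 with only the 6 arrays compared (Slc25a16, Slc25a5, Vdac1 and Vdac3). Array quality weights gave 3 calls (Slc25a5, Vdac1 and Vdac3). Leaving out 1 array gave 0 to 5 calls: 0 without any WT or KO array, 1 without HET replicate 3, and 5 without HET replicate 1 (Slc25a16, Slc25a40, Slc25a5, Vdac1 and Vdac3). Between HET and WT leaving out 1 array gave 0 to 3 calls, 3 without HET replicate 1 (Slc25a16, Slc25a5 and Vdac1). In that setting 578 of all genes were called, against 0 with all arrays. It leaves every HET array in the second batch and every WT array in the first, so genotype and batch cannot be told apart there. The median of HET minus WT moved to 0.067 with the batch block, and that of KO minus HET to 0.126 with signals multiplied to one median, where the median of all genes was 0.09. Slc25a5 turned to 0.10 with the mean of its probe sets (limma, adjusted p = 0.650). Over its 22 alternatives the adjusted p of Slc25a5 ran from 0.00218 to 0.958, and that of Vdac3 from 0.00657 to 0.885. Vdac3 was higher in KO in all 22 alternatives, called in 7, and Slc25a5 was called in 8. Esrrg lost its call when its probe sets were averaged (-0.72, limma, adjusted p = 0.125), and its batch-block value was -1.89 (limma, adjusted p = 0.168). Over all genes the 211 calls between KO and WT became 24 with the shift, 19 with signals multiplied, 85 with no filter, 7 with the mean of probe sets, 6 with no trend, 612 with array weights, 773 with 6 arrays and 1 with the batch block, and 10 to 845 with 1 array left out. Same-numbered arrays of different genotypes did not deviate together (correlations -0.04 to 0.05), so no pairing by number was visible. With 3 arrays per genotype this cannot show that the arrays were unpaired. With the replicate block 0 members and 127 genes were called. Unless named here, the cause of a change was not tested. Standard errors were widest for Slc25a2, Slc25a34 and Slc25a16 (0.42, 0.41 and 0.35), so only larger differences could be called there.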
